A study of Mus musculus with 6 samples.

Results

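Excitatory and inhibitory neurons of the hippocampus were compared between the 5xFAD amyloid model and wild type, each class on its own and one class against the other. Single-cell suspensions of hippocampus came from mice 6 months old. The series holds 6 samples in 3 groups of 2: 5xFAD mice given phosphate-buffered saline (PBS), wild-type littermates given PBS, and 5xFAD mice given Aβ3FTnAu, a protein-gold nanostructure. The PBS groups are the comparison here (called 5xFAD and WT below), and the nanostructure group entered the fits only to help estimate the spread. A droplet barcode counted as a neuron when it held at least 500 genes, at least 1000 UMIs (unique molecular identifiers, each standing for 1 captured RNA molecule), at most 15% mitochondrial UMIs and at least 3 UMIs of Rbfox3, Syt1 and Snap25 together. Neurons with at least 2 UMIs of Gad1 and Gad2, the enzymes that make GABA, and at most 1 of Slc17a7, a vesicular glutamate transporter, were called inhibitory. Neurons with no Gad1 or Gad2 UMI and at least 1 of Slc17a7 were called excitatory. This gave 14875 excitatory and 1756 inhibitory neurons, 16631 of the 50224 barcodes in the series and of the 35444 in the 4 samples compared.

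5xFAD mice carry mutated human transgenes, APP among them, under the neuronal Thy1 promoter, in addition to their own App, and deposit amyloid plaques in the hippocampus and cortex from early adulthood. Excitatory pyramidal and granule neurons form the main circuit of the hippocampus and release glutamate. The less numerous inhibitory interneurons release GABA, hold that circuit in check and fall into subtypes marked by somatostatin (Sst), parvalbumin (Pvalb), vasoactive intestinal peptide (Vip) and neuropeptide Y (Npy). Nothing in the labels says how many mice each sample came from, so p-values measure only the spread between samples.

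The markers that the class rule did not use bore out the names. Camk2a, a kinase of glutamatergic synapses, stood at 694 to 851 CPM in excitatory sums and at 269 to 309 in inhibitory sums, and Slc32a1, the vesicular GABA transporter, stood at 45.6 to 111 CPM in inhibitory sums and at 0.967 to 2.24 in excitatory sums. CPM here is each gene's UMIs on the usual counts-per-million scale of the class's sum in a sample, with edgeR's TMM factors; in pairs of values, replicate 1 comes first. The 4 excitatory sums held 19387000 to 42335142 UMIs from 2312 to 6097 barcodes, and the inhibitory sums 1506179 to 4634001 UMIs from 203 to 843 barcodes. Pairs of libraries shared 9 to 45 barcodes of the 5196 to 14993 in each. WT replicate 1 stood apart: it had the most barcodes, and 55.6% of its excitatory barcodes held no mitochondrial UMI, against 29.3% in WT replicate 2 and 22.1% and 17.8% in the 5xFAD samples. In excitatory sums the chi-square per degree of freedom between replicates was 50.1 in WT and 5.22 in 5xFAD, where sampling noise alone gives about 1.

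Inhibitory neurons made up a smaller share of all neurons in 5xFAD than in WT. The share was 5.40% (203 of 3756; 95% exact binomial interval 4.70 to 6.18) and 5.52% (350 of 6335; 4.97 to 6.12) in the 5xFAD samples, and 7.25% (843 of 11623; 6.79 to 7.74) and 7.41% (360 of 4858; 6.69 to 8.18) in the WT samples. Both 5xFAD samples lay below both WT samples and the intervals of the groups did not overlap; intervals cover counting error only. The means were 5.46% ± 0.085 and 7.33% ± 0.111 (SD, n = 2 samples a group), a ratio of 0.745 and a difference of -1.87 percentage points. The exact two-sided permutation test gave p = 0.333, the smallest it can give with 2 samples against 2. Of excitatory and inhibitory neurons together, the inhibitory ones were 8.07% and 8.39% in 5xFAD and 12.1% and 11.98% in WT, again without overlap (permutation p = 0.333).

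Excitatory neurons took the larger share in 5xFAD, at 61.6% and 60.3% of neurons against 52.5% and 54.5% in WT (permutation p = 0.333). The class rule left 33.0% and 34.2% of 5xFAD neurons and 40.3% and 38.1% of WT neurons in neither class, and these shares also did not overlap. Barcodes with fewer UMIs are less likely to meet either rule, and median depth of neurons was 6442 and 5073 UMIs in 5xFAD and 4764 and 5328 in WT. With every neuron of at least 2000 UMIs thinned to 2000 before classing (which kept 3542 and 5839 neurons of 5xFAD and 10588 and 4500 of WT), the inhibitory share was 2.15% and 2.24% in 5xFAD and 3.34% and 3.04% in WT, still without overlap. With stricter thresholds (at least 4 Gad1 and Gad2 UMIs and no Slc17a7 UMI) it was 2.21% and 2.08% in 5xFAD and 2.37% and 2.86% in WT, a difference of -0.467 points in place of -1.87, and the binomial intervals of the groups then overlapped. Background was read in oligodendrocyte-type barcodes, which should hold neither marker and had median depths of 1267.5 to 1475 UMIs. Slc17a7 was seen in 10.7% and 6.05% of them in 5xFAD and 5.96% and 9.34% in WT, against 69.8%, 66.0%, 58.8% and 59.5% of neurons in the same order. At least 2 Gad1 and Gad2 UMIs were seen in none of 363, 645, 386 and 289 such barcodes, which allows shares of up to 0.826%, 0.465%, 0.777% and 1.04% at that lower depth. At an equal depth of 2000 UMIs only 75, 82, 41 and 44 such barcodes were left, and 0 among them allows up to 4%, 3.66%, 7.32% and 6.82%, above the thinned inhibitory shares, so a background at equal depth could not be bounded below those shares. Fewer inhibitory cells in the tissue, fewer captured in suspension and less Gad1 or Gad2 RNA per cell cannot be told apart.

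**Figure D1:**
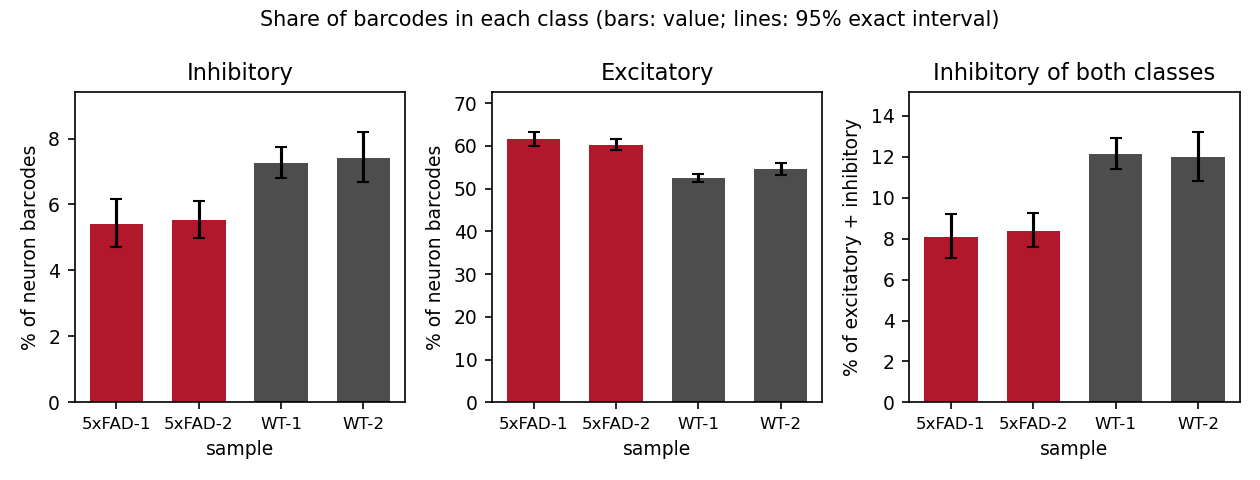
Share of neuron barcodes called inhibitory (left) and excitatory (middle), and the inhibitory share of the classes together (right), in percent, for each of the 4 samples, with 95% exact binomial intervals. The 5xFAD bars at 5.40% and 5.52% in the left panel lie below the WT bars at 7.25% and 7.41%.

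Gene by gene, no transcript passed the adjusted threshold within either class. UMIs of a class were added up within each sample, and edgeR's quasi-likelihood test compared 5xFAD with WT over all genes that passed the low-count filter, with Benjamini-Hochberg adjustment. Of 18705 genes tested in excitatory neurons 0 had an adjusted p under 0.05 (0%, smallest 0.216); 634 (3.39%) were higher and 701 (3.75%) lower at an unadjusted p under 0.05, and DESeq2 called 58. Of 13899 tested in inhibitory neurons 0 passed (0%, smallest 0.705), 346 (2.49%) were higher and 605 (4.35%) lower at an unadjusted p under 0.05, and DESeq2 called 1. Leaving out WT replicate 1 gave 117 and 20 calls in edgeR, and leaving out WT replicate 2 gave 6342 and 2293.

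The test of the difference between the classes compares both sums of each library with each other, and it gave calls. It asked, for each gene, whether the log2 fold change of 5xFAD over WT in inhibitory neurons departs from that in excitatory neurons. Of 18613 genes, 31 had an adjusted p under 0.05: 19 (0.102%) with the inhibitory value above the excitatory one and 12 (0.0645%) with it below. For all 31, the inhibitory-to-excitatory log2 ratios of the 5xFAD samples did not overlap those of the WT samples. The same held for 6475 of the 18613 genes tested, and the 31 were picked by a test on these same values. Leaving out 5xFAD replicate 2 kept 10 of the 31, leaving out WT replicate 1 kept 16, and 9 genes were called in each of the 4 fits that leave out a PBS sample: Erbb4, Sox2ot, Gm38505, Sox6, Thy1, Gpc5, Gm20713, Sst and Stk32a. Thy1 and Erbb4 were called under all 20 alternative settings.

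**Figure D2:**
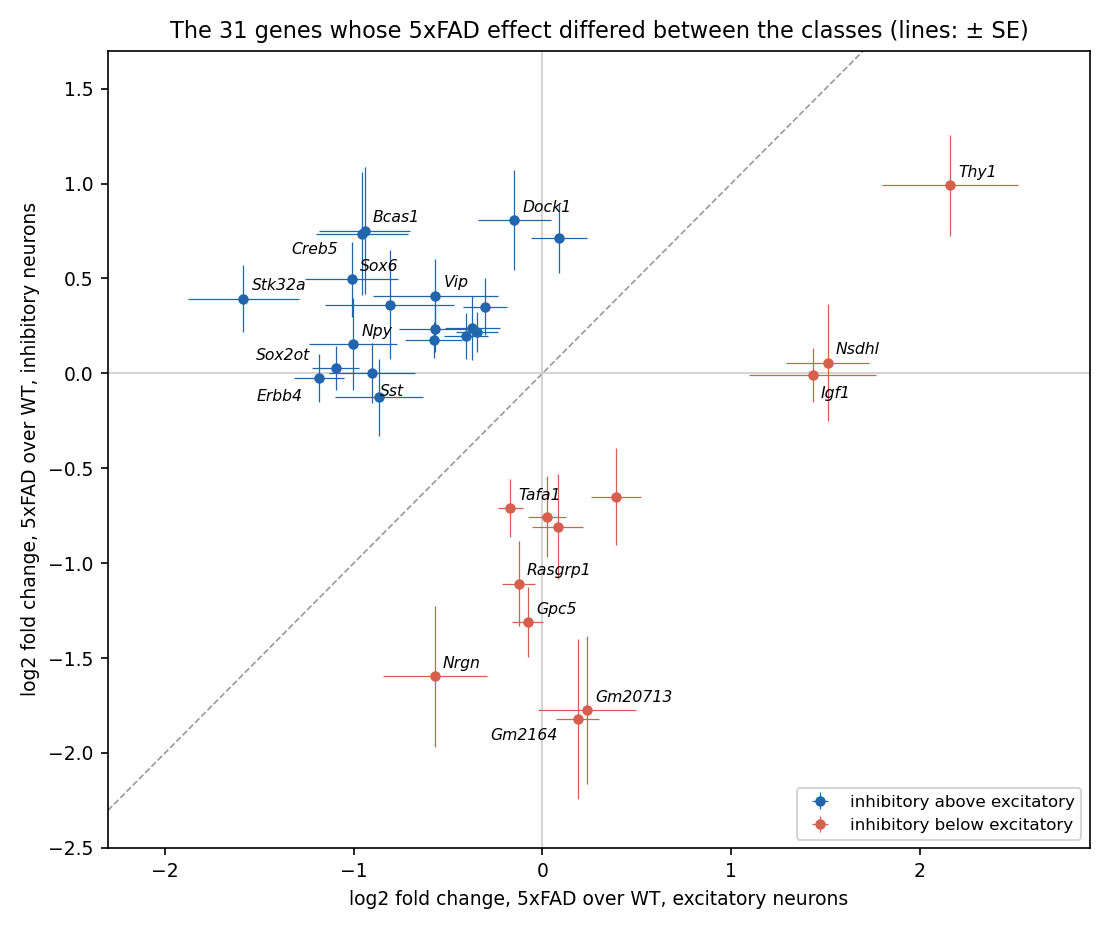
Log2 fold change of 5xFAD over WT in excitatory (horizontal axis) and inhibitory neurons (vertical axis) for the 31 genes called in the test of the difference, each point a gene with lines of ± SE. Points on the dashed line would have equal changes; Thy1 lies at 2.16 and 0.99, and most other points lie near 0 on one axis.

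Thy1, a cell-surface glycoprotein of neurons whose promoter drives the transgenes, was higher in 5xFAD in both classes, and the more so in excitatory neurons. Its excitatory level was 186 and 220 CPM in 5xFAD and 63.0 and 27.2 in WT, a log2 fold change of 2.16 ± 0.36 (SE) with an unadjusted p of 0.000723 (adjusted 0.457). Its inhibitory level was 116 and 120 CPM in 5xFAD and 76.9 and 38.8 in WT, a log2 fold change of 0.99 ± 0.27 (adjusted p 0.705). Both 5xFAD samples were above both WT samples in each class, and WT replicate 1 was well above WT replicate 2. In WT the inhibitory level was the higher one, and in 5xFAD the excitatory level was. The inhibitory log2 fold change lay below the excitatory one by a difference of -1.14 ± 0.12 (adjusted p 4.69e-06), a value that lay between -1.30 and -1.03 under all alternatives.

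Thy1 lies on chromosome 9 from 44043384 to 44048579, plus strand, in GRCm38 (the GENCODE annotation given for this build). Transcripts of the transgenes that carry Thy1 sequence and transcripts of the gene itself cannot be told apart in these counts. The 5xFAD mice given Aβ3FTnAu, which carry the same transgenes by their label, had excitatory Thy1 at 103 and 105 CPM. Thy1 was also higher in 5xFAD in oligodendrocyte-type barcodes, at 151 and 94.3 against 70.0 and 40.6 CPM of those barcodes' UMIs, and the part of free RNA in the neuronal values was not tested.

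The mouse App gene showed a smaller difference. App, the amyloid precursor protein, was at 569 and 596 CPM against 506 and 436 in excitatory neurons (0.31 ± 0.09, unadjusted p 0.015) and at 690 and 673 against 627 and 527 in inhibitory neurons (0.24 ± 0.12, unadjusted p 0.0704). The groups did not overlap in either class. The difference between classes was not called (-0.06 ± 0.09, adjusted p 0.987). How far reads of the human transgenes were counted under the mouse gene was not tested.

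**Figure D3:**
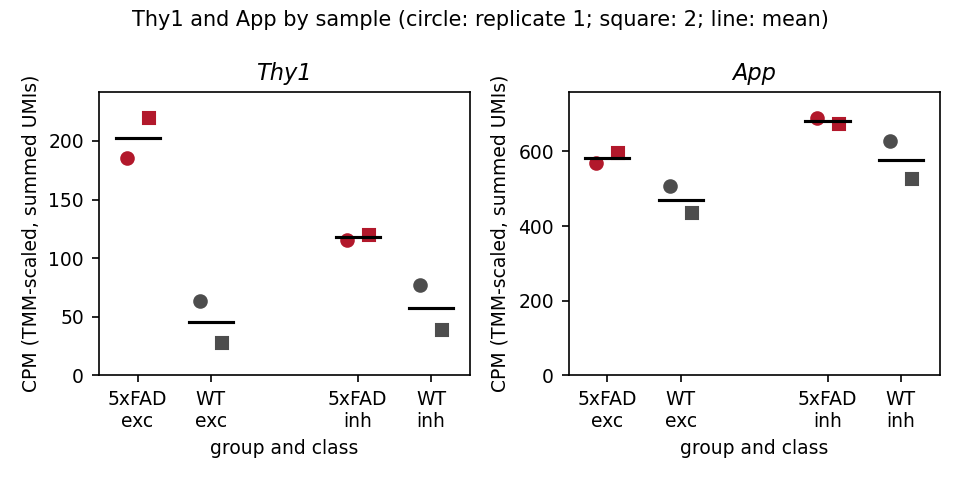
CPM of Thy1 and App in excitatory (exc) and inhibitory (inh) sums for each of the 4 samples, on axes that start at 0, with a line at the mean of the 2 samples of a group. Thy1 shows the widest gap in excitatory sums, 186 and 220 CPM in 5xFAD against 63.0 and 27.2 in WT.

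Most genes called in the test of the difference were more abundant in one class and lower in 5xFAD in the other. Of the 19 with the inhibitory value above the excitatory one, 15 were more abundant in WT inhibitory than in WT excitatory neurons, and their log2 fold change farther from 0 was the excitatory one, which was below 0. Erbb4, a neuregulin receptor of interneurons, was at 36.8 and 37.6 CPM in 5xFAD and 93.7 and 75.1 in WT excitatory sums (log2 fold change -1.18 ± 0.13, adjusted p 0.216). Its inhibitory level, 8036 and 6661 CPM in 5xFAD against 6685 and 8256 in WT, overlapped between the groups (-0.02 ± 0.13). The difference was 1.16 ± 0.13 (adjusted p 5.25e-06).

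Neuropeptides of interneurons followed the same pattern. Sst was at 11.5 and 17.3 CPM in 5xFAD and 24.1 and 30.0 in WT excitatory sums (log2 fold change -0.90 ± 0.23) and at 319 and 447 against 384 and 382 in inhibitory sums (0.00 ± 0.16). The difference of 0.89 ± 0.11 was called (adjusted p 5.59e-05). Npy was at 4.91 and 5.65 CPM against 10.2 and 11.1 in excitatory sums, without overlap, and at 125 and 191 against 171 and 113 in inhibitory sums, with overlap (difference 1.13 ± 0.19, adjusted p 0.00312). Vip was at 4.03 and 7.81 against 7.73 and 10.0 CPM in excitatory sums and at 141 and 205 against 132 and 130 in inhibitory sums (difference 0.94 ± 0.16, adjusted p 0.00391). Within interneurons the levels of Sst and Npy overlapped between 5xFAD and WT, and Vip was higher in both 5xFAD samples without a call (0.41 ± 0.19, unadjusted p 0.0626). Among barcodes with no mitochondrial UMI the inhibitory log2 fold change of Sst was -1.84, and edgeR called it (adjusted p 0.0222). Those sums held 30 and 47 inhibitory barcodes in 5xFAD and 440 and 79 in WT. The Sst difference there was -0.85 and was not called (adjusted p 0.453). With stricter class thresholds the inhibitory log2 fold change of Vip was -0.96 and its difference -0.46, neither of them called. Pvalb was sparse, at 8.53 to 15.8 CPM in inhibitory sums, with overlapping groups.

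Nxph1, a ligand of neurexins secreted by interneurons, stood at 23.7 and 18.2 CPM in 5xFAD and 32.6 and 29.6 in WT in excitatory sums (difference 0.84 ± 0.13, adjusted p 0.00141). The non-coding RNA Sox2ot stood at 26.5 and 27.2 against 52.7 and 62.1 CPM (difference 1.13 ± 0.10, adjusted p 1.93e-07). In neither of these did the excitatory sums of 5xFAD and WT overlap. Gm38505, a lincRNA on the opposite strand inside the Sox2ot locus of chromosome 3, had a difference of 1.19 ± 0.13; the use of strand in counting was not given in the sources used here, so the pair may share reads.

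Sox6, a transcription factor of interneurons, and Stk32a, a serine/threonine kinase, also had higher inhibitory levels in 5xFAD. Sox6 was at 278 and 244 CPM in 5xFAD and 167 and 203 in WT inhibitory sums (0.50 ± 0.20, unadjusted p 0.034), and at 6.48 and 5.32 against 14.0 and 9.59 in excitatory sums (difference 1.58 ± 0.21, adjusted p 7.63e-05). Stk32a was at 67.7 and 53.0 against 47.9 and 42.7 CPM in inhibitory sums and at 0.737 and 0.818 against 2.44 and 2.24 in excitatory sums, with a difference of 1.96 ± 0.28 (adjusted p 0.000343). In both classes and for both genes the groups did not overlap.

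Of the 12 genes with the inhibitory value below the excitatory one, 9 were more abundant in WT excitatory neurons, and their log2 fold change farther from 0 was the inhibitory one, which was below 0. Gpc5, a heparan sulfate proteoglycan of the cell surface, was at 45.3 and 54.2 CPM in 5xFAD and 142 and 105 in WT inhibitory sums (log2 fold change -1.31 ± 0.19, unadjusted p 7.51e-05, the smallest of the class at 10 CPM or more, adjusted 0.705). Its excitatory level of 307 and 281 against 315 and 305 CPM hardly differed (-0.08 ± 0.08), and the difference was -1.21 ± 0.14 (adjusted p 1.84e-05). Gm20713, a transcript on the opposite strand overlapping Gpc5 on chromosome 14, had a difference of -2.02 ± 0.25, with the same limit on strand.

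Nrgn, the calmodulin-binding neurogranin of pyramidal neurons, was at 17.7 and 17.0 CPM in 5xFAD and 69.7 and 32.8 in WT inhibitory sums (difference -1.02 ± 0.19, adjusted p 0.00754). Rasgrp1, a guanine nucleotide exchange factor for Ras, was at 12.5 and 13.3 against 27.9 and 28.2 CPM (difference -0.98 ± 0.20, adjusted p 0.0229). Tafa1, a secreted neuropeptide-like protein, was at 182 and 163 against 272 and 291 CPM (difference -0.53 ± 0.11, adjusted p 0.0194). The inhibitory sums of the groups were apart for all of these, and their excitatory log2 fold changes were -0.57, -0.13 and -0.17. Sv2b, a synaptic vesicle protein of glutamatergic terminals, Hs3st4, a heparan sulfate sulfotransferase, Dkk3, a secreted Dickkopf protein, and the antisense transcript Gm2164 had differences of -0.89, -0.75, -1.03 and -1.95. Neurod6, a transcription factor of pyramidal neurons, was likewise lower in 5xFAD inhibitory sums, at 3.28 and 6.47 against 17.5 and 14.1 CPM, without a call for the difference (adjusted p 0.0841).

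The same held for marker lists, given here as description. Of 10 inhibitory identity genes tested in excitatory sums, 5 were lower and 0 higher at an unadjusted p under 0.05, with a median of -0.70 (3.39% of all genes were higher there and 3.75% lower), and of 15 in inhibitory sums 0 were lower or higher, with a median of -0.01. Of 8 excitatory identity genes tested in inhibitory sums, 3 were lower and 0 higher, with a median of -0.32 (4.35% of all genes were lower there and 2.49% higher), and of 13 in excitatory sums 0 were, with a median of -0.02. With excitatory barcodes drawn down to the inhibitory number, 1 of 6 inhibitory identity genes was lower in excitatory sums, with a median of -0.69. The share over all genes in that setting is not given here. Leaving out single PBS samples gave medians from -0.85 (without 5xFAD replicate 2) to -0.50 (without WT replicate 1). For excitatory identity genes in inhibitory sums the medians then ran from -0.65 (without 5xFAD replicate 2) to -0.18 (without 5xFAD replicate 1). The summed inhibitory identity level in excitatory sums was 563 and 499 CPM in 5xFAD and 707 and 588 in WT, beside 15819 and 14263 against 14279 and 15993 in inhibitory sums.

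These are low levels of one class's genes in barcodes of the other class, and several measures move with them. Sst was also lower in 5xFAD in oligodendrocyte-type barcodes, at 58.0 and 77.8 against 115 and 128 CPM of those barcodes, as was Npy, at 19.9 and 30.1 against 54.2 and 40.6. Nrgn was at 21.6 and 23.8 against 171 and 31.6 there. Erbb4, which oligodendrocytes also express, was at 1917 and 1572 against 2233 and 1841, where the groups overlapped. Neurons with both marker sets were 1.17% and 0.663% of neurons in 5xFAD and 1.196% and 0.597% in WT, and these overlapped. With the barcodes of highest Scrublet doublet score removed, 16 of the 31 were called and the difference of Tafa1 was 0.089; with barcodes thinned to 2000 UMIs 11 were called and that of Hs3st4 was 0.13. With stricter class thresholds 18 of the 31 were called among 47 genes, and in barcodes with no mitochondrial UMI 5 of the 31 were called among 12 genes. The part of free RNA, doublets and class purity in these genes was not tested beyond that.

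**Figure D4:**
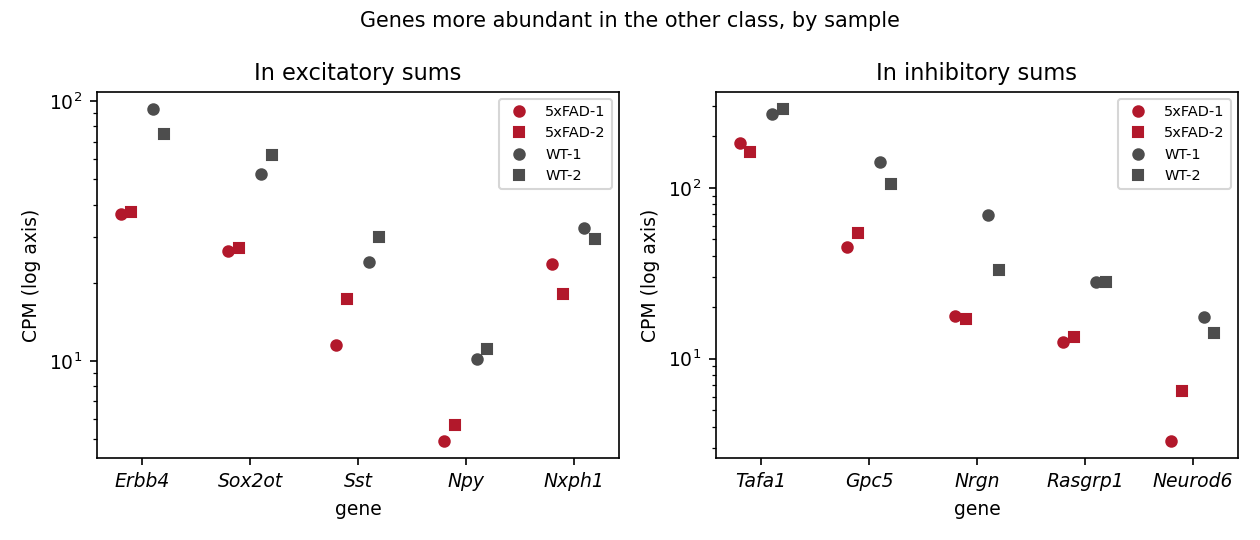
CPM on a log axis in each of the 4 samples for 5 genes more abundant in interneurons, read in excitatory sums (left), and 5 genes more abundant in excitatory neurons, read in inhibitory sums (right). The 10 genes were picked from those lower in 5xFAD, so both 5xFAD samples lie below both WT samples by choice. Sst, for example, lies at 11.5 and 17.3 against 24.1 and 30.0 CPM. Vip, whose groups overlapped in excitatory sums, is not shown. In either direction, 6845 of 18705 genes tested in excitatory sums and 4705 of 13899 in inhibitory sums did not overlap.

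Of the rest of the 31, Zfp536, Tmtc2, Shc3 and Npas3 had differences of 0.58, 0.62, 0.63 and 0.77 and belonged to the 15 genes lower in excitatory sums. Kctd8 and Iqsec3, with differences of 0.66 and 0.62, were higher in 5xFAD inhibitory sums. The remaining called genes did not follow the pattern either, and Creb5 is given with them for its inhibitory values. Thy1, Nsdhl and Igf1 were higher in 5xFAD excitatory neurons, and Nsdhl is taken up with its pathway below. Igf1, insulin-like growth factor 1, was at 3.78 and 3.98 CPM in 5xFAD and 1.75 and 1.04 in WT excitatory sums and at 76.8 and 79.7 against 82.5 and 74.6 in inhibitory sums (difference -1.39 ± 0.23, adjusted p 0.00183). With excitatory barcodes drawn down to the inhibitory number, the Igf1 difference was 0.13 in place of -1.39 and was not called. Bcas1, a gene of newly myelinating oligodendrocytes, was at 11.8 and 16.6 against 7.67 and 9.81 CPM in inhibitory sums and at 5.06 and 6.96 against 10.9 and 12.3 in excitatory sums (difference 1.69 ± 0.31, adjusted p 0.00693). Creb5, a transcription factor that is 1 of the 15, gave 21.0 and 32.8 against 15.3 and 17.9 CPM in inhibitory sums (difference 1.74 ± 0.28, adjusted p 0.00169). Dock1, a Rac activator, gave 28.9 and 30.7 against 13.2 and 22.2 CPM there (difference 0.97 ± 0.20, adjusted p 0.0327). The groups did not overlap in any of these inhibitory sums of Bcas1, Creb5 and Dock1.

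Cholesterol synthesis genes lay mostly above 0 in 5xFAD excitatory neurons, none of them at an adjusted p under 0.05 in either class. Neurons make sterols from acetyl-CoA through mevalonate and squalene. In excitatory sums 14 of 24 list members were higher and 0 lower at an unadjusted p under 0.05 (3.39% and 3.75% of all genes), 23 lay above 0 and the median log2 fold change was 0.57, beside -0.02 over all genes tested. In inhibitory sums 1 of 24 was higher and 0 lower (2.49% and 4.35% of all genes), 15 lay above 0, and the median was 0.14 beside -0.03. The list's summed level was 637 and 542 CPM in 5xFAD and 431 and 379 in WT excitatory sums, without overlap, and 509 and 480 against 490 and 389 in inhibitory sums, with overlap. The test of the difference had a median of -0.37 over the 24 genes beside 0.03 over all genes, and called only Nsdhl.

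Nsdhl, which removes a methyl group from sterol intermediates, was at 26.0 and 17.6 CPM in 5xFAD and 8.19 and 7.04 in WT excitatory sums (log2 fold change 1.51 ± 0.22, unadjusted p 0.000358, adjusted 0.392). Its inhibitory level was 15.1 and 10.1 against 11.7 and 11.9 CPM (0.06 ± 0.31), where the groups overlapped. The difference was -1.39 ± 0.27 (adjusted p 0.0148), and its call was lost whenever 1 of the 4 PBS samples was left out. Sqle, squalene epoxidase, was at 34.7 and 29.0 against 18.0 and 17.5 CPM in excitatory sums (0.84 ± 0.16) and at 26.9 and 27.5 against 21.1 and 19.2 in inhibitory sums (0.43 ± 0.20).

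The cholesterol result varied in size with the samples and barcodes used. In excitatory sums the median log2 fold change of the 24 genes was 0.38 without 5xFAD replicate 1 and 0.68 without 5xFAD replicate 2. It was 0.60 without WT replicate 1 and 0.42 without WT replicate 2. With each sample's excitatory barcodes drawn down to its inhibitory number, 15 of 24 were higher with a median of 0.65. With barcodes thinned to 2000 UMIs, 6 were higher with a median of 0.49. Shares over all genes are not given here for these settings or for the subsets below, and 3.39% holds for the main fit only. Among excitatory barcodes with no UMI of Prox1, a transcription factor of dentate granule neurons, 16 of 24 were higher with a median of 0.69. Those with at least 1 Prox1 UMI were 29.1% and 27.7% of excitatory barcodes in 5xFAD and 19.7% and 21.9% in WT. Among these, 1 of 24 was higher with a median of 0.16. Their sums held 4388137 to 11944354 UMIs, against 14144365 to 30390788 for barcodes with no Prox1 UMI. The difference between these subsets was not tested.

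**Figure D5:**
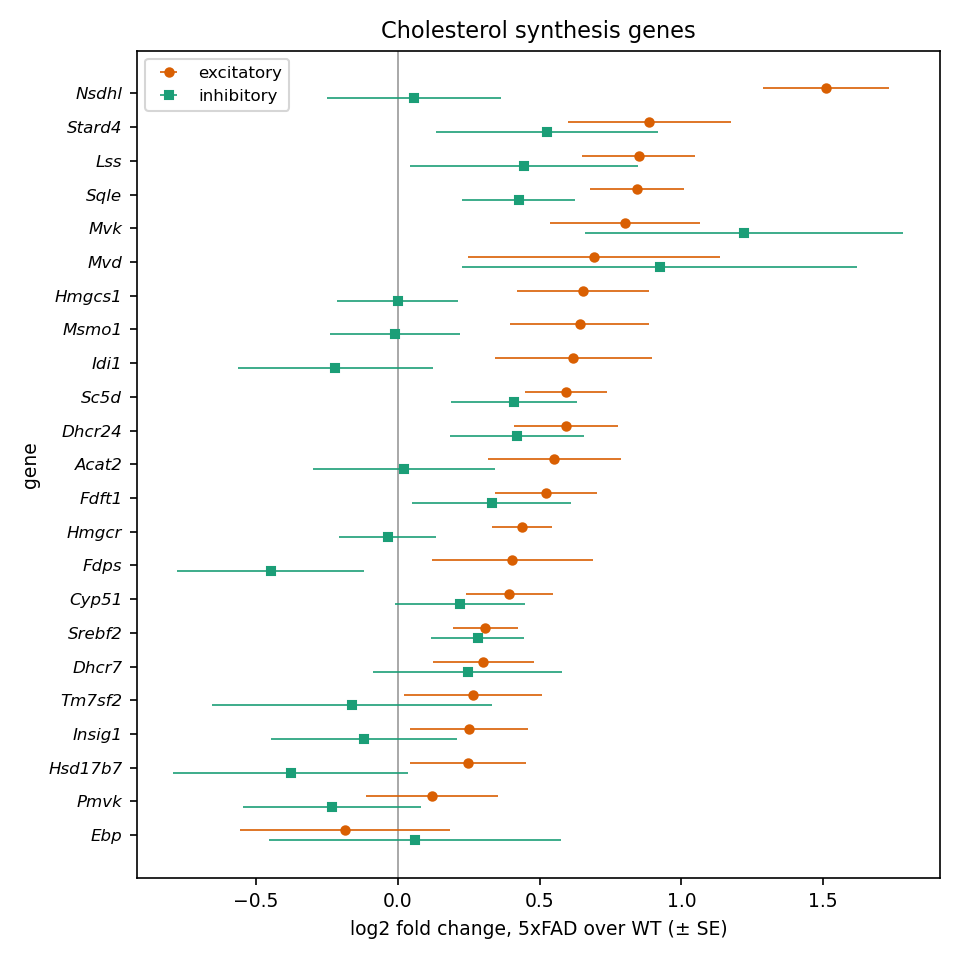
Log2 fold change of 5xFAD over WT with ± SE for 23 genes of the cholesterol list, in excitatory (circles) and inhibitory sums (squares), ordered by the excitatory value. In excitatory sums 22 of 23 points lie above 0, and in inhibitory sums 14 of 23 do.

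The bases upstream of 3 of these genes are shown because sterol genes share promoter elements: the CCAAT box, bound by the NF-Y factor, and the sterol regulatory element, bound by SREBP. They are the list members with a promoter entry that had the smallest p in the test of the difference, so Msmo1, a sterol methyl oxidase, and Hmgcs1, the synthase that starts the mevalonate path, were chosen after their values were seen. Each is the 250 bases before the RefSeq start in GRCm38.p6, written along the gene's strand; capitals mark CCAAT, which reads as ATTGG where it lies on the other strand, and the core of the sterol element, CACCCCAC.
Nsdhl (chrX:72918271-72918520, plus strand): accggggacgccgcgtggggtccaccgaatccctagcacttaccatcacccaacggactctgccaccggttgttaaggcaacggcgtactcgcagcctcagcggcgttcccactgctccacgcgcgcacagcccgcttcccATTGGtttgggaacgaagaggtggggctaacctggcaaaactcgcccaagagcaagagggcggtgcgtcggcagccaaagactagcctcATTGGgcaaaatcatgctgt
Msmo1 (chr8:64733579-64733828, minus strand): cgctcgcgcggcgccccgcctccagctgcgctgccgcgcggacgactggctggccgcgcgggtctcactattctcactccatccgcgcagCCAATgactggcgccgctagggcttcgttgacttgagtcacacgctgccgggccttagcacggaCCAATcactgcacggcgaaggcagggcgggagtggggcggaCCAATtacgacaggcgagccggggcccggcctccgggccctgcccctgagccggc
Hmgcs1 (chr13:119690101-119690350, plus strand): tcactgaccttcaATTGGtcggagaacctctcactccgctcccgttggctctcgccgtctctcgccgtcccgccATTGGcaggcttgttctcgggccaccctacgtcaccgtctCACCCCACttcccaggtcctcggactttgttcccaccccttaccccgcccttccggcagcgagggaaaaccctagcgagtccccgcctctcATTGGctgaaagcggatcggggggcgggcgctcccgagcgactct
CCAAT occurs 2 times upstream of Nsdhl, 3 times upstream of Msmo1 and 3 times upstream of Hmgcs1, and the sterol core 1 time, upstream of Hmgcs1. Of the 24 list members 17 had a promoter entry. CCAAT on either strand was in 15 of these 17, against 34.5% of 27025 promoters of the same length, and GGGCGG, the GC box bound by Sp1, was in 16 of 17 against 32.9%. CACCCCAC was in 2 of 17 (Hmgcs1 and Acat2) against 2.51%. These are matches of letters in a fixed window and say nothing of binding. In excitatory sums Msmo1 was at 55.3 and 52.1 CPM in 5xFAD and 42.4 and 26.2 in WT, and Hmgcs1 at 36.5 and 26.0 against 19.4 and 20.2, both without overlap. In inhibitory sums they were at 44.0 and 38.0 against 48.8 and 32.0 CPM and at 26.9 and 22.2 against 24.7 and 23.9, both with overlap.

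Markers of microglia and oligodendrocytes differed with the groups in both neuron classes. For comparison, 3.39% of all genes were higher and 3.75% lower at this threshold in excitatory sums, and 2.49% higher and 4.35% lower in inhibitory sums. Of 14 microglia markers tested in excitatory sums, 5 were higher and 2 lower in 5xFAD at an unadjusted p under 0.05, and of 10 in inhibitory sums 4 were higher and 0 lower. The median log2 fold changes of these markers were 0.35 in excitatory and 0.59 in inhibitory sums. They were 0.27 and 0.19 without 5xFAD replicate 2, and 0.41 and 0.99 without WT replicate 1. Tyrobp, the adaptor of the microglial receptor TREM2, was at 11.1 and 12.4 CPM against 2.59 and 2.55 in excitatory sums (2.19 ± 0.27) and at 15.1 and 18.2 against 1.07 and 3.41 in inhibitory sums (3.10 ± 0.51). The summed level of the microglia list was 327 and 367 against 238 and 273 CPM in excitatory sums and 294 and 345 against 179 and 247 in inhibitory sums. No member was at 0 in all 4 samples.

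Oligodendrocyte markers lay the other way in both classes. In excitatory sums 10 of 12 were lower and 0 higher (3.75% of all genes were lower), with a median of -0.78. In inhibitory sums 7 of 11 were lower and 0 higher (4.35% of all genes were lower), with a median of -0.74. Mog, a myelin glycoprotein, was at 10.2 and 10.6 against 27.8 and 23.6 CPM in excitatory sums (-1.30 ± 0.19) and at 11.2 and 10.1 against 25.1 and 19.2 in inhibitory sums (-1.09 ± 0.35). Precursor cell markers were lower too, 6 of 8 in excitatory sums with a median of -1.25, while in inhibitory sums 1 of 4 was higher and 0 lower. The oligodendrocyte list's summed level was 282 and 293 against 424 and 451 CPM in excitatory sums and 250 and 248 against 352 and 366 in inhibitory sums, and no member was at 0 in all 4. Counts of lower members changed when single PBS samples were left out. Among inhibitory barcodes with no mitochondrial UMI 1 of 10 was lower, with a median of -0.23. Shares over all genes in these settings are not given here. Astrocyte markers did not separate the groups: 1 of 12 was higher and 0 lower in excitatory sums, 0 of 7 were higher and 1 lower in inhibitory sums, and their summed levels overlapped, at 447 and 440 against 482 and 425 CPM and at 288 and 264 against 370 and 258. Tyrobp was also higher in 5xFAD in oligodendrocyte-type barcodes, at 68.0 and 44.6 against 5.25 and 15.8 CPM of those barcodes. Over all barcodes that passed the quality filter, the microglia list summed to 533 and 568 CPM in 5xFAD against 287 and 325 in WT. The oligodendrocyte list summed there to 834 and 959 against 705 and 827 CPM, the other way from the neuronal sums. No member of the microglia or oligodendrocyte list was called in the test of the difference, and the part of glial RNA in the neuronal results was not tested.

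Of the 13 transcripts encoded by mitochondria, 10 were higher in 5xFAD inhibitory neurons at an unadjusted p under 0.05 (2.49% of all genes), with a median of 1.22, and in excitatory neurons 0 of 13 passed (3.39% of all genes), with a median of 0.87. None passed the adjusted threshold. Their summed level was 1016 and 976 CPM against 221 and 703 in inhibitory sums, without overlap, and 593 and 799 against 197 and 598 in excitatory sums, with overlap. mt-Nd3, a subunit of respiratory complex I, was at 24.3 and 29.1 CPM against 1.92 and 10.2 in inhibitory sums (2.35 ± 0.57) and at 15.97 and 18.8 against 1.72 and 13.9 in excitatory sums (1.20 ± 0.81). For mt-Nd3 the groups did not overlap in either class, and WT replicate 1 was by far the lowest, the library whose barcodes most often lacked any mitochondrial UMI. Without WT replicate 1 the median was 0.63 in inhibitory and 0.27 in excitatory sums. Without WT replicate 2 it was 2.28 and 1.75 in the same order. In inhibitory sums it was 1.16 without 5xFAD replicate 1 and 1.32 without 5xFAD replicate 2. No mitochondrial transcript was called in the test of the difference. Among 31 nuclear genes of oxidative phosphorylation 0 were higher and 3 lower in excitatory sums (3.39% and 3.75% of all genes). In inhibitory sums 1 was higher and 3 lower (2.49% and 4.35% of all genes).

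Genes of neuronal signalling were counted list by list at an unadjusted p under 0.05. Of all genes, 3.39% were higher and 3.75% lower in excitatory sums and 2.49% and 4.35% in inhibitory sums. Of 24 glutamate receptor genes, 1 was higher and 2 lower in excitatory sums and 0 were higher and 2 lower of 23 in inhibitory sums. Gria2, the AMPA receptor subunit that limits calcium entry, was at 2561 and 2489 against 2922 and 2925 CPM in excitatory sums (-0.21 ± 0.07, unadjusted p 0.0166) and at 1238 and 1214 against 1481 and 1425 in inhibitory sums (-0.24 ± 0.10, unadjusted p 0.0319), lower in both 5xFAD samples in each class. Gria3, another AMPA receptor subunit, had log2 fold changes of -0.57 ± 0.17 and -0.36 ± 0.14. Of 18 GABA receptor and chloride transporter genes, 2 were lower in excitatory sums, and 1 was higher and 1 lower in inhibitory sums.

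Gabra5, a subunit of extrasynaptic GABA-A receptors in hippocampal pyramidal neurons, was at 122 and 127 against 168 and 168 CPM in excitatory sums (-0.44 ± 0.08, unadjusted p 0.00139). Gabbr2, a GABA-B receptor subunit, was at 349 and 337 against 257 and 249 CPM in inhibitory sums (0.44 ± 0.11, unadjusted p 0.00329) and at 324 and 335 against 309 and 274 in excitatory sums (0.18 ± 0.09). Neither pair of groups overlapped in the class named first, and no difference between classes was called (adjusted p 0.93 and 0.602).

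Of 25 potassium and related channel genes, 4 were higher and 3 lower in excitatory sums (3.39% and 3.75% of all genes). In inhibitory sums 2 were higher and 4 lower (2.49% and 4.35% of all genes). Kcnn3, a calcium-activated channel, was at 35.6 and 33.4 against 19.8 and 22.7 CPM in excitatory sums (0.70 ± 0.13). Kcnj3, an inwardly rectifying channel coupled to G proteins, and Kcnh7, of the ether-a-go-go family, were lower, with log2 fold changes of -0.47 and -0.32 in excitatory sums and -0.29 and -0.48 in inhibitory sums. Sv2c, a synaptic vesicle protein, was higher in both, at 29.3 and 28.8 against 20.4 and 17.6 CPM and at 55.2 and 45.7 against 28.8 and 36.7 (0.61 ± 0.15 and 0.63 ± 0.21).

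Of 25 immediate early genes, which respond to activity, 1 was higher and 2 lower at an unadjusted p under 0.05 in excitatory sums. Of 14 in inhibitory sums 0 were higher and 1 lower. The shares over all genes were 3.39% and 3.75%, and 2.49% and 4.35%. The list's summed level was lower in both 5xFAD samples, at 432 and 461 against 475 and 499 CPM in excitatory sums. In inhibitory sums it was 191 and 178 against 222 and 234. Endoplasmic reticulum stress genes had 0 of 21 and 0 of 20 at an unadjusted p under 0.05. Of 11 heat shock and dissociation genes, 5 were lower and 0 higher in excitatory sums (3.75% of all genes were lower). In inhibitory sums 0 of 8 were lower or higher. Of 22 neuropeptide and granin genes, 6 were lower and 0 higher in excitatory sums with a median of -0.63 (3.75% of all genes were lower), Sst and Npy among them, and 2 of 20 were lower in inhibitory sums (4.35% of all genes). Prox1, which also marks interneurons of the caudal ganglionic eminence, was at 77.3 and 84.7 against 55.0 and 60.9 CPM in excitatory sums (0.48 ± 0.15) and at 61.1 and 49.8 against 34.5 and 40.9 in inhibitory sums (0.55 ± 0.19). Nos1, neuronal nitric oxide synthase, was at 23.9 and 23.6 against 12.8 and 13.8 CPM in excitatory sums (0.84 ± 0.13) and at 35.5 and 38.0 against 23.9 and 25.2 in inhibitory sums (0.59 ± 0.22). Both genes were higher in 5xFAD in both classes without overlap and without a call for the difference (adjusted p 0.998 and 0.941).

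The other genes of smallest p within a class, at 10 CPM or more, included a receptor, a cadherin and several genes more abundant outside the class. In excitatory sums Tgfbr1, a receptor of transforming growth factor beta, was at 48.5 and 45.6 against 28.8 and 27.3 CPM (0.75 ± 0.13), and Cdh10, a cadherin, at 254 and 237 against 391 and 360 (-0.61 ± 0.11). In inhibitory sums Ptgds, prostaglandin D synthase, was at 40.1 and 51.4 against 140 and 90.4 CPM (-1.33 ± 0.24), beside a log2 fold change of -1.22 ± 0.24 in excitatory sums. Zdhhc23, a palmitoyltransferase, was at 5.25 and 5.26 against 18.3 and 15.4 CPM in inhibitory sums (-1.69 ± 0.32). Arpp21, a cAMP-regulated phosphoprotein abundant in excitatory neurons, was at 114 and 127 against 178 and 191 CPM in inhibitory sums and at 941 and 864 against 922 and 978 in excitatory sums (difference -0.52 ± 0.11, adjusted p 0.065).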

How the data were processed

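The deposited matrices held raw UMI counts per gene and barcode, which per the file headers came from Cell Ranger 7.1.0 and per the labels used mm10; Seurat 4.3.0.1 is named in the submitters' processing notes. The handling of intronic reads was not given in the sources used here. Members and gene lists were chosen with earlier results of these data known. Sums were taken over the barcodes of a class within a sample, and the 6 genes of the class rule were left out of every test. All 6 samples entered each fit in edgeR 4.0.16 (R 4.3.3; TMM scaling, filterByExpr, quasi-likelihood F test, Benjamini-Hochberg adjustment at 0.05). The difference between classes was the class-by-group term of a model over all 12 sums with a term for each sample. SEs are the fold change over the square root of F. Deposited counts were used as they are, with no doublet removal; Scrublet in scanpy 1.11.5 served as an alternative, at 0.8% per 1000 barcodes. Further alternatives varied the samples, scaling, filter, class thresholds, depth and tool (DESeq2 1.42.0). Named genes were up to 12 of the largest differences in each direction past the threshold with no overlap and at least 10 CPM, the 10 of smallest p where under 10 passed, the 3 of smallest p of each list, and chosen transgene-linked genes and markers. Not every gene the rule names is printed, and the results of some are not reported here. Shares were compared by exact permutation over samples, and their exact binomial intervals came from scipy 1.17.1. The scripts were tested on simulated data. The 4 libraries held 32528417 to 76780861 UMIs in all.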

Additional observations from a re-analysis of the deposited data

Results flagged for a closer look

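For 31 genes the difference between 5xFAD and WT was not the same in inhibitory and excitatory neurons by the test of that difference itself (edgeR, adjusted p under 0.05). Log2 fold changes in inhibitory minus those in excitatory neurons lay below 0 for Gm20713 (-2.02), Gm2164 (-1.95), Nsdhl (-1.39), Igf1 (-1.39), Gpc5 (-1.21), Thy1 (-1.14), Dkk3 (-1.03), Nrgn (-1.02), Rasgrp1 (-0.98), Sv2b (-0.89), Hs3st4 (-0.75) and Tafa1 (-0.53). They lay above 0 for Stk32a (1.96), Creb5 (1.74), Bcas1 (1.69), Sox6 (1.58), Gm38505 (1.19), Erbb4 (1.16), Sox2ot (1.13), Npy (1.13), Dock1 (0.97), Vip (0.94), Sst (0.89) and Nxph1 (0.84).

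The 5xFAD mice given Aβ3FTnAu took no part in the comparison, and their inhibitory share of neurons, 11.7% ± 0.120 (SD, n = 2), stood above the 7.33% of the WT controls. Of their excitatory barcodes 68.6% and 66.7% held no mitochondrial UMI, more than in any PBS sample, and the part of this in the share was not tested.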

How the results depend on the processing

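With 2 samples a group, the counts of called genes moved with single libraries. Leaving out 1 sample gave 0 to 6342 calls in excitatory neurons, 0 to 2293 in inhibitory neurons and 13 to 77 for the difference between classes; the 2 highest within-class counts came without WT replicate 2 (6342 and 2293), and without WT replicate 1 they were 117 and 20. DESeq2 called 58, 1 and 20 genes, and no low-count filter gave 6 in excitatory neurons and 71 for the difference. Barcodes with no mitochondrial UMI gave 2 calls in inhibitory neurons, and Sst, lower in 5xFAD, was 1 of them. The same barcodes gave 12 calls for the difference, of which 5 are among the 31. For the difference, removal of high doublet scores gave 16 calls, stricter class thresholds 47, thinning to 2000 UMIs 14 and excitatory barcodes drawn down to the inhibitory number 15. Signs turned for Sst without mitochondrial UMIs (inhibitory -1.84, difference -0.85), Vip with stricter thresholds (-0.96 and -0.46), Igf1 when drawn down (0.13), Hs3st4 when thinned (0.13) and Tafa1 with doublets removed (0.089); the cause was not tested. The other 26 of the 31 genes kept their sign under all 20 alternatives. Differences in share, in percentage points, ranged over left-out samples from -1.95 to -1.79 for inhibitory neurons, from 6.46 to 8.47 for excitatory neurons and from -3.99 to -3.67 for inhibitory neurons of both classes, and the inhibitory difference was -0.467 with stricter thresholds and -0.999 when thinned; the sample values did not overlap under any alternative. Same-numbered samples did not deviate together (correlations of -0.22 in excitatory and -0.05 in inhibitory sums between 5xFAD and WT), and with the replicate block the counts were 0, 0 and 39, with all 31 genes among the 39.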
